A study of Mus musculus with 16 samples.

Results

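The Slc25 genes encode the mitochondrial solute carriers, the family of inner-membrane transporters that links metabolism in the cytosol to metabolism in the mitochondrial matrix. The genes described here are those whose mouse symbol begins with Slc25a and that reached a normalized count of 10 or more in at least 4 of the 16 libraries. This rule kept 38 of the 44 Slc25a genes listed, among 13331 genes of 22372 that passed the same filter. Of the 38, 37 reached a normalized count of 10 in every library. The member just inside the limit was Slc25a31, which reached it in 8 libraries with a mean of 10.4, and the gene just outside it was Slc25a18, with a mean of 4.61 and no library at 10. The other 5 genes under the limit were Slc25a2, Slc25a43, Slc25a21, Slc25a41 and Slc25a48, and Slc25a48 had no read in any library.

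RNA was sequenced from pieces of heart ventricle of male C57BL/6J mice that were 10 to 12 weeks old when the experiment began. TAC mice had a suture tied around the aortic arch, which places the left ventricle under pressure overload, and sham mice had the same operation without the constriction. THZ1, a covalent inhibitor of the transcriptional kinases CDK7, CDK12 and CDK13, was given at 10 mg/kg into the peritoneum, 2 times daily, beginning on postoperative day 1 and ending on day 60, and the other mice received vehicle. Sham operation with vehicle (Sham-Veh), sham operation with the inhibitor (Sham-THZ1), constriction with vehicle (TAC-Veh) and constriction with the inhibitor (TAC-THZ1) were represented by 4 libraries each. All 4 groups shared the strain, the thoracotomy and the course of injections. The labels give separate libraries within a group but do not name the animals, so the p-values measure the spread between libraries. The questions were which carriers changed under pressure overload and which of them were at another level when THZ1 was given.

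Carriers of this family share a fold of repeated modules, and each moves 1 or a few substrates, often by exchange of 1 molecule for another. In heart muscle the adenine nucleotide and phosphate carriers feed oxidative phosphorylation and export its ATP, the carnitine-acylcarnitine carrier admits fatty acids, and the aspartate-glutamate and oxoglutarate-malate carriers form the malate-aspartate shuttle, which carries reducing equivalents from the cytosol. Other members move amino acids, coenzyme A and other cofactors, pyrimidine nucleotides, iron and glutathione, and several have no settled substrate.

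Each library held between 21.4 M and 35.8 M reads assigned to genes, where M stands for 1e6. Genes of the mitochondrial genome took 33.2% to 44.7% of them, and the 2 lowest shares were those of TAC-Veh 2 (33.2%) and TAC-Veh 4 (34.5%). Cardiomyocyte markers were abundant in every library, and their summed level per kb of exon over 6 genes was 352299 to 385040 in Sham-Veh, 194489 to 283802 in TAC-Veh and 335498 to 398377 in TAC-THZ1. The sum of 5 fibroblast markers was 8288 to 9337, 16146 to 21352 and 10726 to 16220 in the same groups, that of 4 erythroid markers 5923 to 6478, 7235 to 12930 and 6670 to 28795, and that of 3 neutrophil markers 34 to 91, 78 to 453 and 281 to 14014. Of 4 endothelial markers 2 were called lower with TAC, as were 2 of 3 smooth muscle and pericyte markers. Of 4 macrophage markers 2 were called higher. With TAC, 23.6% of all tested genes were called lower and 21.4% higher. Of 4 adipocyte markers, Adipoq was at 0 in 2 of the 16 libraries, Plin1 in 7 and Ucp1 in 14, and Cidea stood at 442 to 964 normalized counts and was called higher with TAC (log2 fold change 0.69, limma). Of 3 skeletal muscle markers, Myh4 was at 0 in 8 libraries and Actn3 in 4, and Tnnt3 stood at 6.68 to 32.9 normalized counts and was called higher with TAC (1.18, limma). Of 3 atrial markers, Sln was at 0 in 11 libraries and Myl7 in 6, and Myl4 stood at 25.1 to 81.1 normalized counts and was not called (0.43). The part of these markers in the results was not tested. In bulk tissue, fewer cells of a type and less RNA per cell cannot be told apart.

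As a group the carriers made up about 1% of the reads of nuclear genes. Their share was 1.06% to 1.08% in Sham-Veh, 1.09% to 1.11% in Sham-THZ1, 0.753% to 1.03% in TAC-Veh and 1.15% to 1.23% in TAC-THZ1. The TAC-THZ1 libraries lay above all others. In TAC-Veh, libraries 1 and 3 stood at 1.01% and 1.03%, close to the sham groups, and libraries 2 and 4 at 0.753% and 0.817%, the same 2 libraries that had the lowest mitochondrial shares. Carrier results that rest on these 2 libraries are therefore given with and without them, and those of other genes with all libraries only. Because the 2 were picked for a low carrier share, leaving them out tends to shrink falls with TAC and rises with THZ1. Such fits show how far a value rests on these libraries, and cannot decide whether a change is real. Library weights that limma estimated over all genes were 0.184 for TAC-Veh 1, 0.447 for TAC-Veh 2 and 0.479 for TAC-Veh 4.

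**Figure D1:**
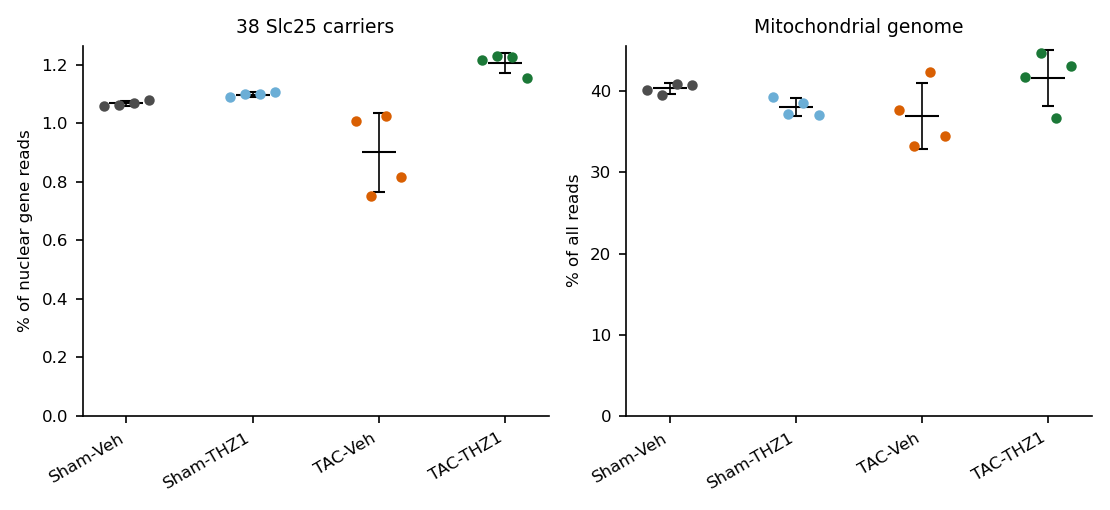
Share of reads in each library: left, the 38 Slc25 carriers as a percent of reads of nuclear genes; right, genes of the mitochondrial genome as a percent of all reads. Points are libraries, and bars give the mean and SD of the 4 libraries of a group; TAC-Veh 2 and 4 are the lowest points in both panels.

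The family was dominated by a few carriers of energy metabolism. On the scale of normalized counts per kb of exon, averaged over 16 libraries, Slc25a4 (Ant1, the ADP-ATP exchanger of heart and skeletal muscle) stood at 48321. It was followed by Slc25a11 (the oxoglutarate-malate carrier) at 5281, Slc25a3 (the phosphate carrier) at 4059.6, Slc25a5 (Ant2, the ADP-ATP exchanger of growing cells) at 2349, Slc25a20 (the carnitine-acylcarnitine carrier) at 2086 and Slc25a34 (a carrier without a settled substrate) at 1277. Slc25a4 alone held 65.6% to 71.6% of the summed per-kb level of the family in a library, and these 6 carriers together held 88.3% to 91.7%. This order and these shares rest on the exon union, which was 5.55 kb for Slc25a3 and 2.12 kb for Slc25a11. By mean normalized count Slc25a3 (22531) lay above Slc25a11 (11195). The lowest member was Slc25a31 (Ant4, the ADP-ATP exchanger of the testis), at 6.41 per kb. The levels of neighbours in this order overlapped across the 4 Sham-Veh libraries for 19 of the 37 adjacent pairs, Slc25a34 with Slc25a13 among the first. Of all 40-base stretches in the exons of Slc25a5, 52.4% also occurred elsewhere in the mm9 genome, in 13 windows of 10 kb. Reads from such stretches may have been left uncounted or counted elsewhere, so the level of Slc25a5 against other genes is uncertain.

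Slc25a4 (chr8:47292151-47296638 in mm9, minus strand) stood at 110068, 111948, 112588 and 115175 normalized counts in Sham-Veh, 114308, 117507, 117144 and 116607 in Sham-THZ1, 116724, 69255, 106020.0 and 78165 in TAC-Veh and 134192, 141418, 131010.0 and 127075 in TAC-THZ1. TAC-Veh 2 and 4 lay far below both sham groups, TAC-Veh 1 lay above every Sham-Veh library, and the 4 TAC-THZ1 libraries lay above all other libraries. Slc25a11 (chr11:70457698-70460981, minus strand) stood at 11390.5, 11447, 11696 and 11586 normalized counts in Sham-Veh, 11459, 10949.9, 11425 and 11401 in Sham-THZ1, 10212, 7351, 10843 and 8577 in TAC-Veh and 11970.1, 13383, 12892 and 12539.5 in TAC-THZ1. All TAC-Veh libraries were below every sham library, and all TAC-THZ1 libraries were above every library of the other groups. Slc25a3 (chr10:90579319-90586804, minus strand) stood at 23147, 23698, 23136 and 24486 normalized counts in Sham-Veh, 25170.5, 24367, 24796 and 24972 in Sham-THZ1, 19065, 13357, 18949.9 and 15807 in TAC-Veh and 23272, 26608, 25987 and 23674 in TAC-THZ1. Its TAC-Veh libraries were below all 12 others, and its TAC-THZ1 values lay within or above the sham range.

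Slc25a5 (chrX:34335646-34338802, plus strand) stood at 3372, 3076, 3503 and 3273 normalized counts in Sham-Veh, 3393, 3544, 3360.4 and 3293 in Sham-THZ1, 4994, 4095, 4499.7 and 3487 in TAC-Veh and 4814, 4145, 5091 and 3917 in TAC-THZ1. Here the direction was the opposite one, with all TAC-THZ1 libraries and TAC-Veh 1, 2 and 3 above the sham range and TAC-Veh 4 within it. Slc25a20 (chr9:108564429-108586972, plus strand) stood at 3827, 3892, 3813 and 3909.6 normalized counts in Sham-Veh, 4188, 4128, 4297 and 4405 in Sham-THZ1, 2935, 2246, 3573 and 2516 in TAC-Veh and 3466, 4365, 3934 and 4019 in TAC-THZ1. All TAC-Veh libraries were below both sham groups, and the highest of them, TAC-Veh 3, overlapped with TAC-THZ1. Slc25a34 (chr4:141174739-141179736, minus strand) stood at 3875, 4247, 3020.2 and 3861 normalized counts in Sham-Veh, 4518, 4403, 4498 and 4810.1 in Sham-THZ1, 2949.8, 1512, 2566 and 2112 in TAC-Veh and 3170.3, 3649.8, 2535 and 2838 in TAC-THZ1. TAC-Veh did not overlap with Sham-Veh but overlapped with TAC-THZ1, and Sham-THZ1 lay above Sham-Veh.

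**Figure D2:**
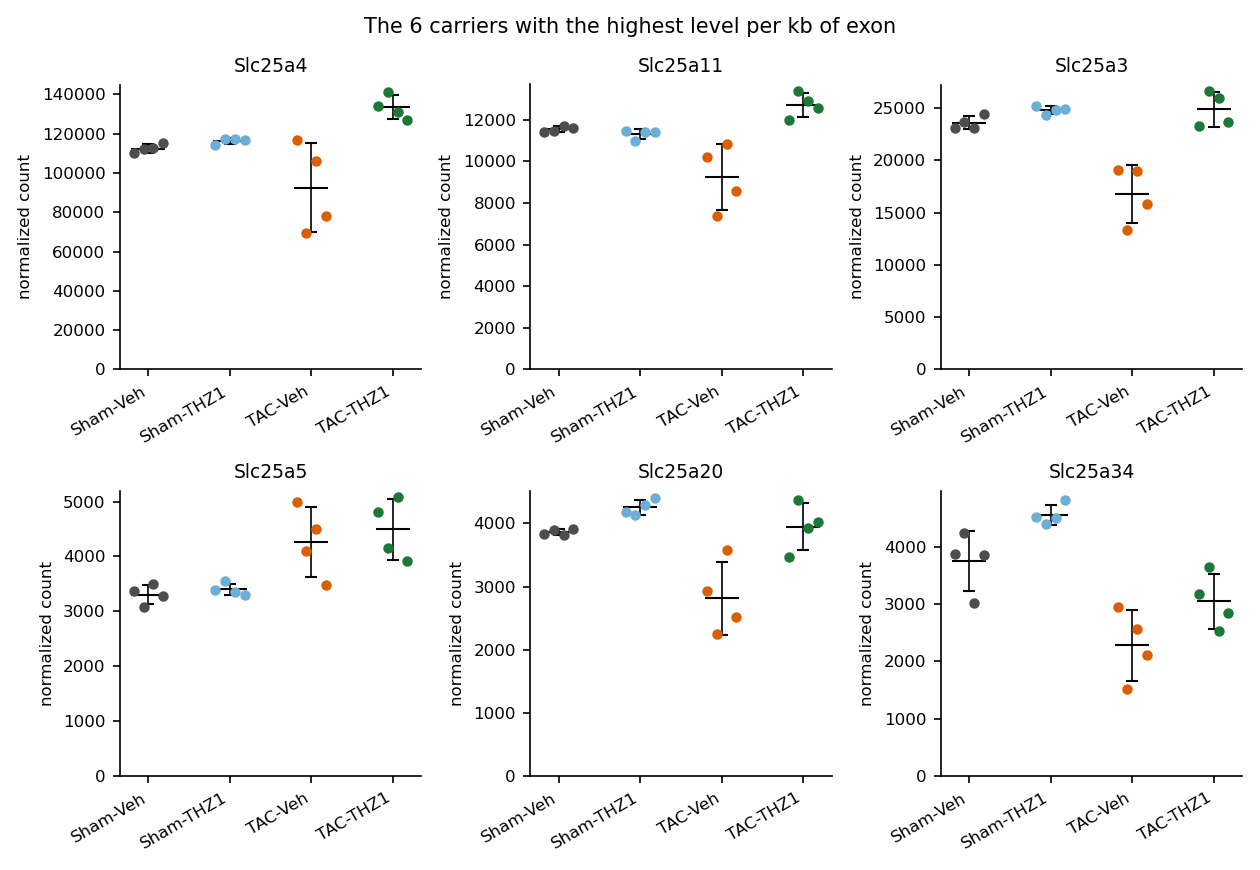
Normalized counts of the 6 carriers with the highest level per kb of exon, by group. Points are libraries, and bars give the mean and SD of 4; Slc25a4, Slc25a11 and Slc25a3 have their lowest values in TAC-Veh 2 and 4, whereas Slc25a5 lies above the sham groups in all TAC libraries except TAC-Veh 4.

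With TAC, more of the carriers were lower than higher. Tests were made with limma on log2(normalized count + 1) over all 13331 genes, and a carrier was called at a Benjamini-Hochberg adjusted p under 0.05. In TAC-Veh against Sham-Veh, 15 of the 38 carriers (39.5%) fell and 4 (10.5%) rose, where 23.6% of all tested genes fell and 21.4% rose. The median log2 fold change of the carriers was -0.19, against -0.003 for all genes. Values of the 2 groups did not overlap for 13 carriers that were lower and 2 that were higher, where 19.1% and 18.2% of all genes did so. Only Slc25a42 and Slc25a22 also fell by at least 1 on the log2 scale, which 3.37% of all genes did. Summed cardiomyocyte marker levels were lower in the same TAC-Veh libraries, with 4 of the 6 markers called lower. The 6 were not lower to the same degree, with log2 fold changes from -1.20 to -0.039. Fibroblast marker sums were higher, with 3 of 5 markers called higher and log2 fold changes from 0.25 to 1.11. Their part in the result was not tested.

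Among the carriers of adenine nucleotides and phosphate, Slc25a3 fell and Slc25a5 and Slc25a24 rose, and the other 4 measured members did not pass the test. The log2 fold change of Slc25a3 was -0.51 ± 0.095 (SE) at an adjusted p of 4.42e-04 (limma). Without TAC-Veh 2 and 4 it was -0.31 (limma adjusted p = 0.00109). That of Slc25a5 was 0.36 ± 0.10 (SE) at an adjusted p of 0.00716 (limma). Slc25a4 had a log2 fold change of -0.31 with a 95% interval of -0.60 to -0.029 and an adjusted p of 0.0673 in limma, so its change was not called. That value depended on single libraries: it was -0.44 without TAC-Veh 1 (adjusted p = 0.00969), -0.39 without TAC-Veh 3 (adjusted p = 0.0315), -0.19 without TAC-Veh 2 (adjusted p = 0.196) and -0.015 without TAC-Veh 2 and 4 (adjusted p = 0.889, limma). With all libraries, Slc25a4 was called lower by DESeq2 on the recovered reads (-0.28, adjusted p = 0.0492) and by limma with library weights (-0.36, adjusted p = 0.017). Slc25a24, an ATP-Mg/phosphate carrier that is regulated by calcium, stood at 272, 279.9, 269.7 and 287 normalized counts in Sham-Veh, 258, 258, 268 and 261 in Sham-THZ1, 431, 428, 329 and 338 in TAC-Veh and 278, 271, 306 and 255 in TAC-THZ1. All TAC-Veh libraries were above all others, and the log2 fold change against Sham-Veh was 0.45 ± 0.091 (SE) at an adjusted p of 8.33e-04 (limma). The other calcium-regulated carriers, Slc25a23 and Slc25a25, had log2 fold changes of 0.11 and 0.37 and were not called, nor was the scarce Slc25a31 (-0.44).

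The malate-aspartate shuttle carriers fell together. Slc25a12 (Aralar, the aspartate-glutamate carrier of heart and brain) stood at 4886, 5093, 5193 and 5474 normalized counts in Sham-Veh, 5129, 5131, 5252 and 5438 in Sham-THZ1, 3892, 2922, 4288 and 3624 in TAC-Veh and 4614, 5272, 4896 and 4727 in TAC-THZ1. The TAC-Veh libraries were below all others, and the log2 fold change was -0.50 ± 0.088 (SE) at an adjusted p of 2.79e-04 (limma). Its paralog Slc25a13 (citrin, the aspartate-glutamate carrier best known from liver) stood at 3661, 4201, 3964 and 3941 normalized counts in Sham-Veh, 3519.8, 3406, 4111 and 3660.3 in Sham-THZ1, 3369.6, 2791, 3595 and 3466 in TAC-Veh and 3816, 4015, 3497 and 3738 in TAC-THZ1. Its TAC-Veh libraries were below every Sham-Veh library but overlapped with TAC-THZ1. The log2 fold change of Slc25a13 was -0.26 ± 0.08 (SE) at an adjusted p of 0.0154 (limma), and it was no longer called without Sham-Veh 2 (-0.23, adjusted p = 0.0524) or without TAC-Veh 2 (-0.18, adjusted p = 0.0546). Slc25a11 fell by 0.33 ± 0.091 (SE) on the log2 scale (limma adjusted p = 0.00703). Without TAC-Veh 2 and 4 its log2 fold change was -0.13 (limma adjusted p = 0.0617).

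The citrate carrier went the other way. Slc25a1, which exports citrate for the synthesis of fatty acids and sterols, stood at 125, 109.9, 134 and 134 normalized counts in Sham-Veh, 134, 120.1, 138 and 135 in Sham-THZ1, 207, 229, 200.1 and 175 in TAC-Veh and 154, 157, 163 and 155 in TAC-THZ1. Every TAC-Veh library was above every library of the other groups, and the TAC-THZ1 libraries lay between TAC-Veh and the sham groups. Its log2 fold change of 0.68 ± 0.10 (SE) at an adjusted p of 3.59e-05 (limma) was the highest of the family with TAC. It rose from a low level, 50.5 to 61.8 normalized counts per kb in Sham-Veh. Slc25a10, the dicarboxylate carrier, had a log2 fold change of 0.13 and was not called.

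The fatty acyl carrier Slc25a20 fell, with a log2 fold change of -0.48 ± 0.11 (SE) at an adjusted p of 0.00166 (limma), which was -0.25 without TAC-Veh 2 and 4 (adjusted p = 0.0227). Of the genes that act with it in the carnitine shuttle, 4 of 5 fell: Cpt1b (-0.52), Cpt2 (-0.78), Crat (-0.80) and the plasma-membrane carnitine transporter Slc22a5 (-0.73), all log2 fold changes. Cpt1a, the form also expressed outside muscle, had a log2 fold change of -0.28 and was not called.

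Carriers of amino acids gave some of the largest differences. Slc25a22, a glutamate carrier, stood at 967, 1005, 857 and 993 normalized counts in Sham-Veh, 1428, 1378, 1153 and 1379.8 in Sham-THZ1, 410.3, 344, 572 and 455 in TAC-Veh and 527, 780.4, 634 and 517 in TAC-THZ1. The TAC-Veh libraries were below both sham groups, Sham-THZ1 lay above Sham-Veh, and TAC-THZ1 overlapped with TAC-Veh. The log2 fold change with TAC was -1.12 ± 0.14 (SE) at an adjusted p of 1.37e-05 (limma). Slc25a29, a carrier of basic amino acids, stood at 153, 175, 187 and 168 normalized counts in Sham-Veh, 204, 214, 195 and 189 in Sham-THZ1, 75.2, 57.9, 123 and 104 in TAC-Veh and 162, 164, 176 and 137 in TAC-THZ1. TAC-Veh lay below the 12 other libraries, with a log2 fold change of -0.97 ± 0.17 (SE) at an adjusted p of 2.68e-04 (limma).

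Slc25a26, which carries S-adenosylmethionine, the methyl donor, into the matrix, stood at 579, 542, 575 and 499 normalized counts in Sham-Veh, 561, 492, 599.7 and 518 in Sham-THZ1, 301, 334, 485 and 422 in TAC-Veh and 532, 647, 505 and 599 in TAC-THZ1. TAC-Veh was below the other groups, and the log2 fold change was -0.53 ± 0.13 (SE) at an adjusted p of 0.00274 (limma). Slc25a38, a glycine carrier that serves heme synthesis, had a log2 fold change of -0.50 ± 0.16 (SE) at an adjusted p of 0.018 (limma), which was -0.43 without TAC-Veh 2 (adjusted p = 0.057) and -0.31 without TAC-Veh 1 (adjusted p = 0.0481). Slc25a15, the ornithine carrier, and Slc25a44, a carrier of branched-chain amino acids, had log2 fold changes of -0.26 and -0.058 and were not called.

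The largest change of the family was that of a coenzyme A carrier. Slc25a42, which exchanges coenzyme A for adenine nucleotides, stood at 1713, 1788, 1504 and 1807 normalized counts in Sham-Veh, 2149, 2004, 2090.2 and 1983 in Sham-THZ1, 308, 396, 767 and 715 in TAC-Veh and 1043, 1405, 1045 and 958 in TAC-THZ1. The 4 groups did not overlap with each other. The log2 fold change with TAC was -1.74 ± 0.21 (SE) at an adjusted p of 1.11e-05 (limma), from a mean of 1703 ± 139 (SD, n = 4) in Sham-Veh to 546 ± 228 in TAC-Veh. Slc25a16, which is also tied to coenzyme A in mitochondria, stood at 896, 882, 860.3 and 982 normalized counts in Sham-Veh, 817, 924, 907 and 825 in Sham-THZ1, 768, 642, 674 and 739 in TAC-Veh and 703, 802, 697 and 760.0 in TAC-THZ1. TAC-Veh did not overlap with Sham-Veh, and the log2 fold change was -0.36 ± 0.073 (SE) at an adjusted p of 8.63e-04 (limma). The folate carrier Slc25a32, the peroxisomal carrier Slc25a17 and the pyrimidine nucleotide carriers Slc25a33 and Slc25a36 had log2 fold changes between -0.056 and 0.15 and were not called.

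Of the iron and glutathione carriers, Slc25a39 alone fell. Slc25a39, which imports glutathione, stood at 2185, 2143, 2173 and 2302 normalized counts in Sham-Veh, 2505, 2472, 2389 and 2306 in Sham-THZ1, 1835, 1777, 2230.1 and 1909 in TAC-Veh and 2364, 2405, 2526 and 2345 in TAC-THZ1. TAC-Veh 3 lay within the Sham-Veh range and the other 3 TAC-Veh libraries below it. The log2 fold change was -0.19 ± 0.064 (SE) at an adjusted p of 0.0249 (limma), and it was no longer called without TAC-Veh 1 (-0.16, adjusted p = 0.0582), TAC-Veh 2 (-0.15, adjusted p = 0.0813) or Sham-Veh 4 (-0.17, adjusted p = 0.0736). The mitoferrins, which import iron, had log2 fold changes of -0.02 for Slc25a37 and -0.19 for Slc25a28, and Slc25a40, the paralog of Slc25a39, one of -0.091. None of these 3 was called. The uncoupling-like carriers Slc25a14, Slc25a27 and Slc25a30 had log2 fold changes of 0.31, -0.15 and 0.26, without a call.

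Among the members without a settled substrate or in the outer membrane, Slc25a34, Slc25a46 and Slc25a35 fell and Slc25a45 rose. Slc25a34 had a log2 fold change of -0.75 ± 0.16 (SE) at an adjusted p of 0.00143 (limma), which was -0.44 without TAC-Veh 2 and 4 (adjusted p = 0.0154). Slc25a46, an outer-membrane protein of mitochondrial dynamics, had one of -0.19 ± 0.069 (SE) at an adjusted p of 0.0303 (limma), which was -0.12 without TAC-Veh 2 (adjusted p = 0.106), -0.18 without TAC-Veh 4 (adjusted p = 0.053), -0.17 without Sham-Veh 1 (adjusted p = 0.0835) and -0.20 without Sham-Veh 2 (adjusted p = 0.0513). The call of Slc25a35 rested on an adjusted p of 0.0489 (limma, log2 fold change -0.30), which held in 12 of 32 alternatives, and its log2 fold change was -0.20 without TAC-Veh 1 (adjusted p = 0.153). Of 16 fits that each left out 1 library, 12 did not call it. Slc25a45 stood at 130.5, 123, 152 and 123 normalized counts in Sham-Veh, 156, 137, 94.8 and 154 in Sham-THZ1, 136, 211, 184 and 189 in TAC-Veh and 192, 160.4, 165 and 179 in TAC-THZ1. TAC-Veh 1 lay within the Sham-Veh range, and the log2 fold change was 0.43 ± 0.16 (SE) at an adjusted p of 0.0315 (limma). Leaving out any of TAC-Veh 2, 3 or 4 or Sham-Veh 1, 2 or 4 gave adjusted p between 0.0586 and 0.0996 (limma). Slc25a47 had a log2 fold change of -0.23 and was not called.

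**Figure D3:**
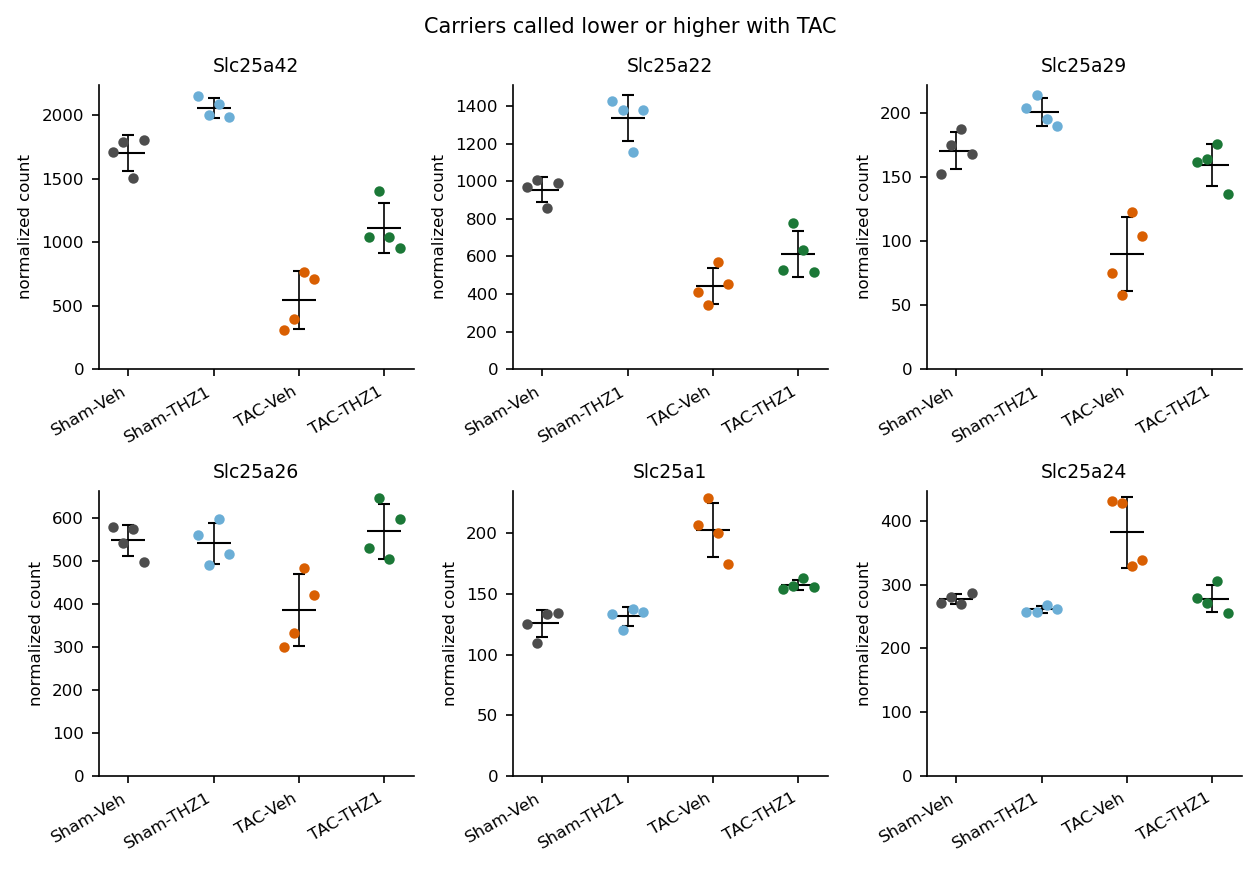
Normalized counts of 4 carriers called lower with TAC (Slc25a42, Slc25a22, Slc25a29 and Slc25a26) and 2 called higher (Slc25a1 and Slc25a24), by group. Points are libraries, and bars give the mean and SD of 4; for Slc25a42 the 4 groups are fully apart.

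Spread within TAC-Veh was wider than within the other groups. The median coefficient of variation of the 38 carriers was 16% in TAC-Veh against 6.93% in Sham-Veh, 6.13% in Sham-THZ1 and 8.49% in TAC-THZ1. Of the 15 carriers that fell, TAC-Veh 2 gave the lowest of the 4 TAC-Veh values for 11 and TAC-Veh 1 for 4, and TAC-Veh 3 gave the highest for 11. The order of the TAC-Veh libraries differed between carriers: Slc25a4, Slc25a11 and Slc25a3 were lowest in libraries 2 and 4, but Slc25a42 and Slc25a38 were lowest in libraries 1 and 2. Without TAC-Veh 2 and 4, which was tried after seeing the data, 10 carriers were called lower, all of them among the 15, and Slc25a11, Slc25a13, Slc25a35, Slc25a39 and Slc25a46 were not. The same fit called 4 higher, with Slc25a17 in place of Slc25a45. Of the 15, 9 were called in each of 32 alternatives (Slc25a3, Slc25a12, Slc25a16, Slc25a20, Slc25a22, Slc25a26, Slc25a29, Slc25a34 and Slc25a42), as were Slc25a1, Slc25a5 and Slc25a24 of the 4 that rose.

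RefSeq holds a promoter window for 30 of the 38 carriers in build GRCm38.p6, which differs from the mm9 build of the expression data. The 250 bases before the annotated start are shown for the carrier with the largest fall (Slc25a42, chr8:70212282-70212531, minus strand) and the carrier with the largest rise (Slc25a1, chr16:17928220-17928469, minus strand). Those of Slc25a11 (chr11:70647040-70647289, minus strand), the carrier second highest per kb of exon, are shown as well. All windows are written 5′ to 3′ on the strand of the gene. Capitals mark the letters CCAAT, the CCAAT box, and CACGTG, the E-box, on either strand. A CCAAT on the opposite strand thus reads ATTGG.
Slc25a42: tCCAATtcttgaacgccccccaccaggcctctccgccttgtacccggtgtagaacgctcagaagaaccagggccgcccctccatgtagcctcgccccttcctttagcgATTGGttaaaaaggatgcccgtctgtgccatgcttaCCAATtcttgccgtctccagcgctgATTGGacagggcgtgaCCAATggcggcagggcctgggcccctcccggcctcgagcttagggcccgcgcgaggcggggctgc
Slc25a1: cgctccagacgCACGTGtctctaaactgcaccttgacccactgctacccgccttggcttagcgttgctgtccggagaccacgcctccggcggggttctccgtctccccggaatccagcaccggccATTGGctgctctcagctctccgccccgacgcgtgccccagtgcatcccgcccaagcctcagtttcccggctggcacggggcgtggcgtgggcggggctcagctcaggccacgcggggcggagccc
Slc25a11: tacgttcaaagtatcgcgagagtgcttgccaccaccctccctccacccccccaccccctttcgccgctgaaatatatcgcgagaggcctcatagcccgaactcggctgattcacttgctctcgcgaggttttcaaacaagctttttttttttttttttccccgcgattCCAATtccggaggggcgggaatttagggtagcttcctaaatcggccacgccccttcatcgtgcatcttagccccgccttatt

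The Slc25a42 window held 5 CCAAT matches, 3 on its own strand and 2 on the opposite one, and the other 2 windows held 1 each. The 1 CACGTG match in these windows began 239 bases before the start of Slc25a1. Over the 30 carriers with a window, CCAAT occurred on either strand in 16 (53.3%), against 37.5% of 27025 genes with a window in the same table. CACGTG occurred in 7 (23.3%, against 6.86%), GGGCGG, the GC box, in 23 (76.7%, against 35.4%) and TATAAA, the TATA box, in none (against 14.3%). AGGTCA, a nuclear receptor element, occurred in 4 (13.3%, against 15.8%) and ACTTCCGG, an ETS site, in 1 (3.33%, against 3.23%). The 27025 genes, unlike the carriers, were not limited to those that passed the expression filter, so the 2 shares are not matched for expression. These letters were chosen after the expression values were seen, some genes had more than 1 window, and no test was made.

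In TAC hearts, most of the carriers that differed with THZ1 were higher. In TAC-THZ1 against TAC-Veh, 15 of the 38 carriers (39.5%) rose and 2 (5.26%) fell, where 15.1% of all tested genes rose and 14.2% fell. The median log2 fold change was 0.17 over the carriers and 0.015 over all genes. Values did not overlap for 10 carriers that were higher and 2 that were lower, where 9.53% and 10.5% of all genes did so. One carrier, Slc25a42, also passed a log2 threshold of 0.89, as 1.85% of all genes did. The comparison shares the TAC-Veh libraries with that against Sham-Veh, so the 2 sets of values are not independent. Summed cardiomyocyte marker levels were higher in TAC-THZ1 than in TAC-Veh, with 4 of 6 markers called higher and log2 fold changes from 0.11 to 0.67. Fibroblast sums were lower in 3 of the 4 libraries than in every TAC-Veh library. Of the 5 fibroblast markers 3 were called lower, and their log2 fold changes ran from -1.76 to -0.20. Of 4 endothelial markers 2 were called lower, and both neutrophil markers that were tested, S100a8 (3.66) and S100a9 (3.75), were called higher, in log2 fold changes. Their part in the result was not tested.

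**Figure D4:**
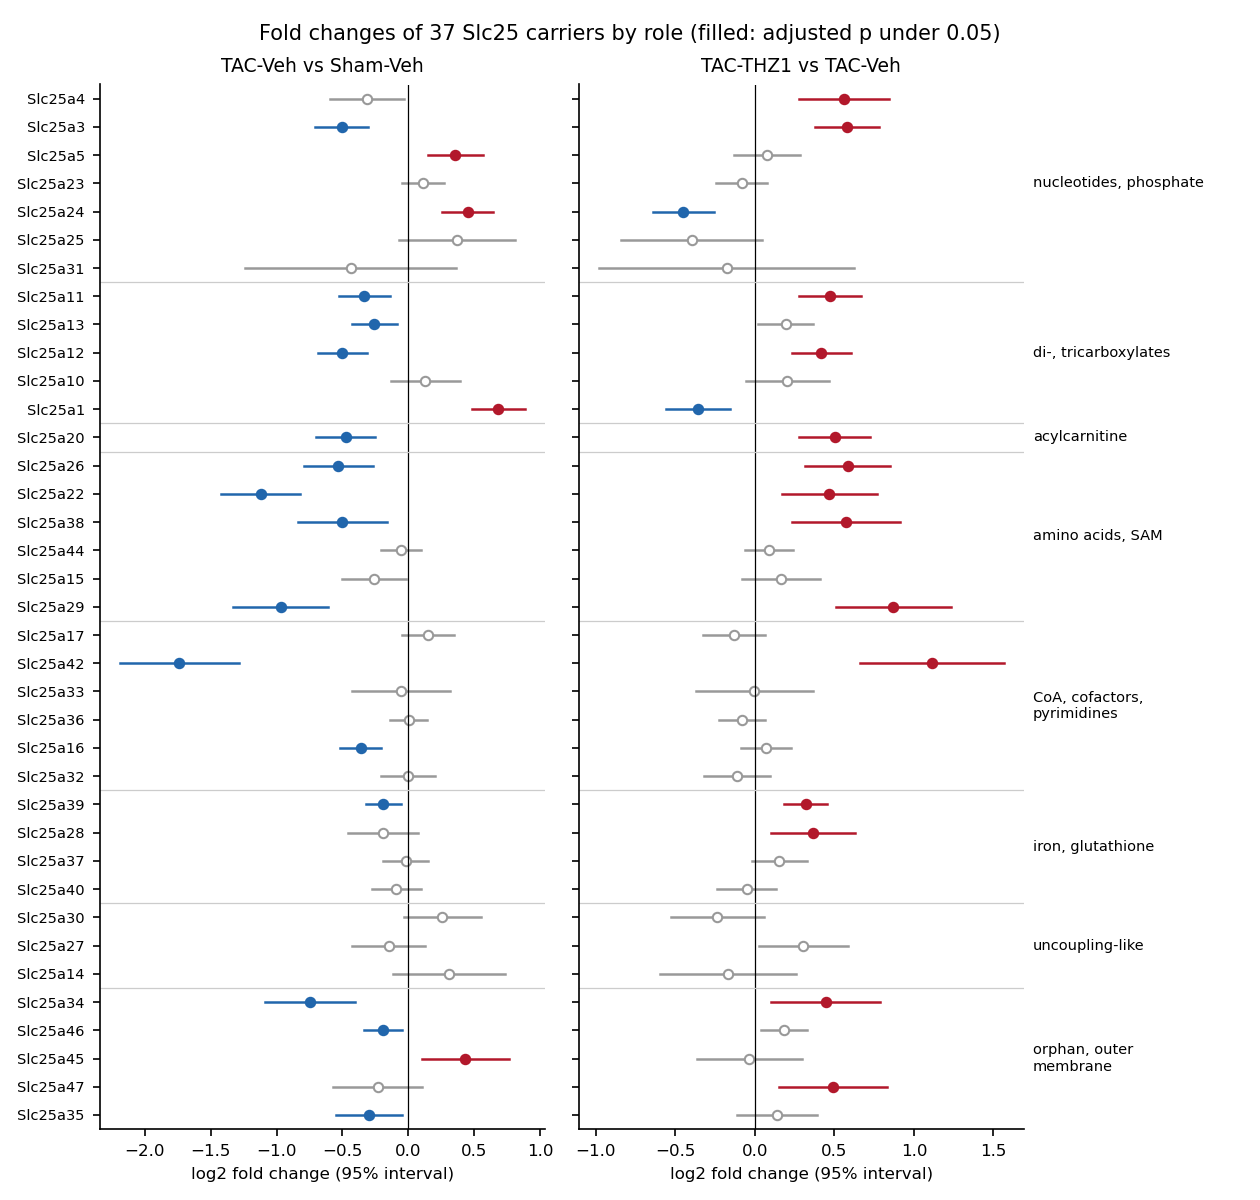
Log2 fold change and 95% interval of 37 of the 38 carriers, grouped by role and ordered within a role by level per kb; left, TAC-Veh against Sham-Veh; right, TAC-THZ1 against TAC-Veh. Filled blue or red points passed an adjusted p of 0.05 in limma and open grey points did not; both panels use the TAC-Veh libraries, so they are not independent.

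Slc25a3 and Slc25a4 of oxidative phosphorylation, Slc25a11 and Slc25a12 of the malate-aspartate shuttle and the fatty acyl carrier Slc25a20 rose with THZ1. Slc25a3 had a log2 fold change of 0.58 ± 0.095 (SE) at an adjusted p of 4.88e-04 (limma), from a mean of 16795 ± 2744 (SD, n = 4) in TAC-Veh to 24885 ± 1658 in TAC-THZ1. For Slc25a4 it was 0.56 ± 0.13 (SE) at an adjusted p of 0.00571 (limma). The Slc25a4 value was 0.29 after quantile normalization (adjusted p = 0.0577), 0.26 without TAC-Veh 2 and 4 (adjusted p = 0.028) and had an adjusted p of 0.0959 when only the 2 groups compared entered the limma fit. Slc25a11 rose by 0.47 ± 0.091 (SE) on the log2 scale (adjusted p = 0.00149, limma) and Slc25a12 by 0.42 ± 0.088 (adjusted p = 0.00268, limma). Slc25a13 had a log2 fold change of 0.19 (95% interval 0.023 to 0.36) and Slc25a5 one of 0.078 (-0.13 to 0.28), and neither was called. Slc25a20 rose, with a log2 fold change of 0.50 ± 0.11 (SE) at an adjusted p of 0.00252 (limma). Without TAC-Veh 2 and 4 the log2 fold changes were 0.39 for Slc25a3, 0.27 for Slc25a11, 0.25 for Slc25a12 and 0.28 for Slc25a20, and all 4 were still called.

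Slc25a42 had the highest log2 fold change here too, 1.11 ± 0.21 (SE) at an adjusted p of 0.00148 (limma). Its mean in TAC-THZ1, 1113 ± 199 (SD, n = 4), lay between those of TAC-Veh and Sham-Veh. Slc25a16 was not called, with a log2 fold change of 0.071 and a 95% interval of -0.084 to 0.23.

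Among the amino acid carriers, Slc25a29 (0.87), Slc25a26 (0.58), Slc25a38 (0.57) and Slc25a22 (0.47) rose, in log2 fold changes, with limma adjusted p of 0.00163, 0.00296, 0.0134 and 0.0204. The Slc25a38 value was 0.38 without TAC-Veh 1 (adjusted p = 0.024, limma). Slc25a22 was no longer called without TAC-Veh 2 (0.35, adjusted p = 0.0795) or without TAC-THZ1 2 (0.35, adjusted p = 0.0783). Of the iron and glutathione carriers, Slc25a39 rose by 0.32 ± 0.064 (SE) (limma adjusted p = 0.00194), and all 4 TAC-THZ1 libraries were above all 4 TAC-Veh libraries. Slc25a28 (mitoferrin-2) had a log2 fold change of 0.37 ± 0.12 (SE) at an adjusted p of 0.0354 (limma), which was 0.24 without TAC-Veh 2 (adjusted p = 0.131). It also lost its call without TAC-Veh 4 or TAC-THZ1 1, 2 or 4, with log2 fold changes of 0.32 to 0.35. Slc25a37 had a log2 fold change of 0.15 and was not called.

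Slc25a34 and Slc25a47 passed narrowly. The log2 fold change of Slc25a34 was 0.45 ± 0.16 (SE) at an adjusted p of 0.0476 (limma), and its call held in 12 of 32 alternatives. It was 0.26 without TAC-Veh 2 (adjusted p = 0.168) and 0.35 without TAC-THZ1 2 (adjusted p = 0.146), and 12 of the 16 fits without 1 library did not call it. Slc25a47, a carrier best known from liver, had a log2 fold change of 0.49 ± 0.16 (SE) at an adjusted p of 0.0304 (limma), between 0.40 and 0.49 and not called without TAC-Veh 2 or 4 or TAC-THZ1 1, 2 or 4. The 2 carriers that fell were Slc25a24 (-0.45 ± 0.091 (SE) at an adjusted p of 0.00201) and Slc25a1 (-0.36 ± 0.10 (SE) at an adjusted p of 0.0105), both in limma. All 4 TAC-THZ1 libraries were below all 4 TAC-Veh libraries for both genes. The 21 carriers that were not called had log2 fold changes between -0.40 (Slc25a25) and 0.30 (Slc25a27).

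The count of carriers called higher with THZ1 was lower in some alternatives. With only the TAC-Veh and TAC-THZ1 libraries in the limma fit, which leaves out the less variable sham groups, 8 of the 15 were called (Slc25a3, Slc25a11, Slc25a12, Slc25a20, Slc25a26, Slc25a29, Slc25a39 and Slc25a42), and without TAC-Veh 2 and 4 it was 10. Without those 2 libraries the log2 fold changes themselves were smaller for some carriers, at 0.13 against 0.45 for Slc25a34, 0.12 against 0.37 for Slc25a28 and 0.32 against 0.47 for Slc25a22.

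No carrier passed the test for THZ1 in sham hearts when all 4 groups shared the fit. In Sham-THZ1 against Sham-Veh, limma called 0 carriers higher and 0 lower, where 0.0225% and 0.045% of all genes were called. At an unadjusted p under 0.05 there were 2, Slc25a22 (log2 fold change 0.48, 95% interval 0.18 to 0.78) and Slc25a23 (0.16), and edgeR and DESeq2 also called 0 after adjustment. A limma fit of only the sham libraries leaves out the more variable TAC groups. It called 3 higher: Slc25a22 (0.48, adjusted p = 0.00404), Slc25a42 (0.27, adjusted p = 0.0184) and Slc25a20 (0.14, adjusted p = 0.037). Every Sham-THZ1 library was above every Sham-Veh library for these 3 genes. Over the family, values of the 2 groups did not overlap for 7 carriers that were higher and 1 that was lower, where 6.29% and 5.05% of all genes did so. The carriers ranged from -0.14 (Slc25a35) to 0.48 (Slc25a22), and their median log2 fold change was 0.052, against 0.0026 for all genes.

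With THZ1 in both groups, TAC hearts differed from sham hearts in 5 carriers. In TAC-THZ1 against Sham-THZ1, 4 of the 38 carriers fell and 1 rose, where 12.8% of all genes fell and 11.4% rose. Slc25a22 had a log2 fold change of -1.13 ± 0.14 (SE) at an adjusted p of 2.40e-04, Slc25a42 of -0.90 ± 0.21 (SE) at an adjusted p of 0.00793 and Slc25a34 of -0.59 ± 0.16 (SE) at an adjusted p of 0.016, all by limma. Slc25a16 fell by 0.23 ± 0.073 (SE) on the log2 scale (limma adjusted p = 0.0326), and lost its call without Sham-THZ1 2 or 3 or TAC-THZ1 1, 3 or 4, with log2 fold changes between -0.24 and -0.20. The carrier that rose was Slc25a5, with a log2 fold change of 0.39 ± 0.10 (SE) at an adjusted p of 0.00975 (limma). Over the family, values of the 2 groups did not overlap for 6 carriers that were higher and 5 that were lower, the 5 called ones among them, where 15.7% and 17.7% of all genes did so. Slc25a4, Slc25a3, Slc25a11, Slc25a12 and Slc25a20 had log2 fold changes of 0.20 (-0.088 to 0.48), 0.0011 (-0.20 to 0.20), 0.17 (-0.027 to 0.36), -0.10 (-0.29 to 0.083) and -0.11 (-0.34 to 0.11), with 95% intervals in parentheses, and were not called. Over all 33 carriers without a call the range was -0.53 (Slc25a31) to 0.38 (Slc25a45). With TAC-Veh 2 and 4 left out of the fit, which changes only the shared estimate of spread here, Slc25a4, Slc25a11 and Slc25a1 were called higher as well. Among the markers, 3 of 4 endothelial, 3 of 3 smooth muscle and pericyte and 2 of 6 cardiomyocyte genes were called lower, 2 of 5 fibroblast genes were called higher and 1 lower, and both tested neutrophil genes, 1 of 4 macrophage genes, Cidea and Tnnt3 were called higher. Their part in the result was not tested.

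The response to THZ1 was tested for a difference between TAC and sham hearts with the interaction term of the same limma fit. It was called positive for 3 of the 38 carriers and negative for 0, where 4.4% and 5.62% of all genes were called. The 3 were Slc25a11 (0.50 ± 0.13 (SE) at an adjusted p of 0.0245), Slc25a3 (0.51 ± 0.13 (SE) at an adjusted p of 0.0267) and Slc25a26 (0.60 ± 0.18 (SE) at an adjusted p of 0.0422), as differences of log2 fold changes. At an unadjusted p under 0.05 there were 11 positive and 5 negative, and of the negative ones edgeR and DESeq2 called 0 after adjustment. Without TAC-Veh 2 and 4 the interaction was 0.30 for Slc25a11 and 0.31 for Slc25a3, both called, and 0.59 for Slc25a26 (limma adjusted p = 0.0783). None of the 3 calls held in each fit without 1 library. Slc25a11 was not called without Sham-Veh 3, Sham-THZ1 2 or TAC-THZ1 2 (adjusted p 0.0501 to 0.0542, estimates of 0.48 to 0.49, limma). Slc25a3 was not called without Sham-Veh 2 or 4, Sham-THZ1 2 or 4 or TAC-THZ1 2 (adjusted p 0.0515 to 0.059, estimates of 0.47 to 0.51, limma). Slc25a26 was not called in 11 of the 16, with adjusted p of 0.0512 to 0.0907 (limma). Without TAC-Veh 3, 11 carriers were called positive and 3 negative. For Slc25a42 the interaction was 0.84 with a 95% interval of 0.20 to 1.48 and an adjusted p of 0.0875 (limma).

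Carriers that share a substrate were compared within each library as the log2 ratio of their levels per kb. The Slc25a5/Slc25a4 ratio was -4.51, -4.67, -4.49 and -4.62 in Sham-Veh, -4.56, -4.54, -4.61 and -4.63 in Sham-THZ1, -4.03, -3.56, -4.04 and -3.97 in TAC-Veh and -4.29, -4.58, -4.17 and -4.50 in TAC-THZ1. TAC-Veh lay above all other groups, by 0.67 over Sham-Veh on average, and TAC-THZ1 was 0.48 below TAC-Veh. On the linear scale Slc25a5 stood at 0.042 ± 0.00249 (SD, n = 4) of Slc25a4 in Sham-Veh and at 0.0675 ± 0.0114 in TAC-Veh, levels that carry the uncertainty of Slc25a5 described above. The Slc25a13/Slc25a12 ratio was 0.81, 0.95, 0.84 and 0.75 in Sham-Veh, 0.68, 0.64, 0.87 and 0.66 in Sham-THZ1, 1.02, 1.16, 0.97 and 1.16 in TAC-Veh and 0.95, 0.83, 0.74 and 0.89 in TAC-THZ1. TAC-Veh lay above Sham-Veh by 0.24 and above TAC-THZ1 without overlap.

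The Slc25a16/Slc25a42 ratio was -0.61, -0.70, -0.48 and -0.56 in Sham-Veh, -1.07, -0.80, -0.88 and -0.94 in Sham-THZ1, 1.64, 1.02, 0.14 and 0.37 in TAC-Veh and -0.25, -0.49, -0.26 and -0.012 in TAC-THZ1. TAC-Veh lay above and Sham-THZ1 below all other libraries, while Sham-Veh and TAC-THZ1 overlapped. The mean was 1.38 higher in TAC-Veh than in Sham-Veh and 1.04 lower in TAC-THZ1 than in TAC-Veh. Slc25a40 stood at 281, 289, 302 and 348 normalized counts in Sham-Veh, 319.7, 267, 279 and 293 in Sham-THZ1, 269, 282, 303 and 289 in TAC-Veh and 268, 294, 246 and 298 in TAC-THZ1. Its groups overlapped throughout. The Slc25a39/Slc25a40 ratio was 2.97, 2.90, 2.86 and 2.74 in Sham-Veh, 2.98, 3.22, 3.11 and 2.99 in Sham-THZ1, 2.78, 2.67, 2.89 and 2.74 in TAC-Veh and 3.15, 3.04, 3.37 and 2.99 in TAC-THZ1. Both THZ1 groups lay above their vehicle groups, by 0.21 in sham and 0.37 in TAC hearts on average. In sham hearts the groups were barely apart, with the lowest Sham-THZ1 value at 2.981 and the highest Sham-Veh value at 2.970.

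**Figure D5:**
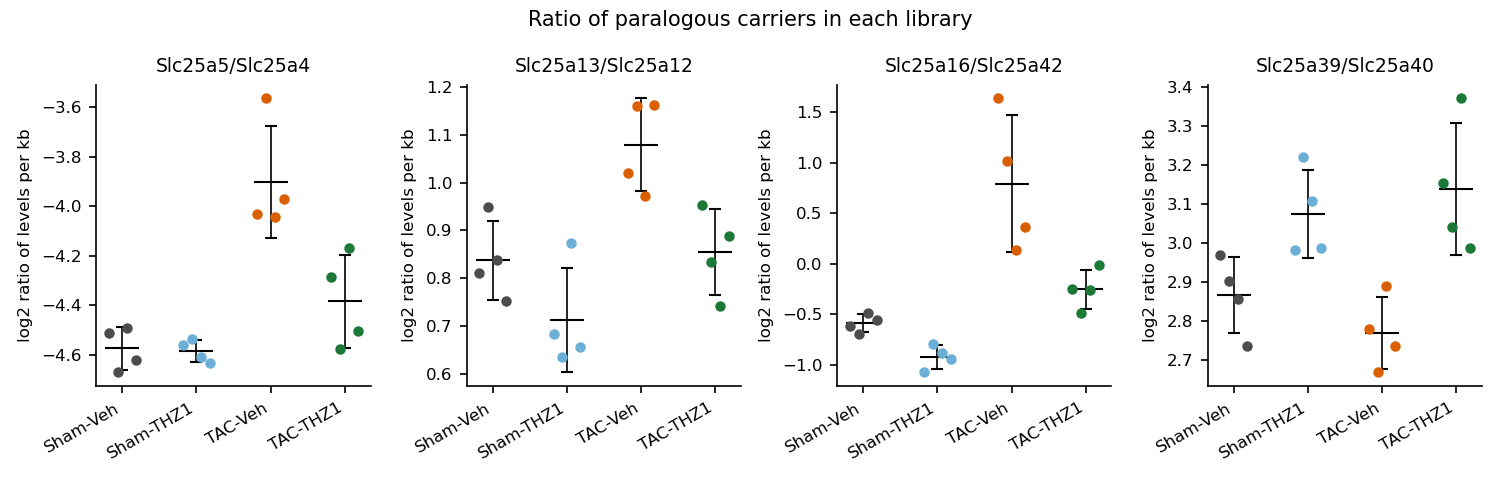
Log2 ratio of the levels per kb of 4 pairs of carriers in each library, by group. Points are libraries, and bars give the mean and SD of 4; the Slc25a5/Slc25a4, Slc25a13/Slc25a12 and Slc25a16/Slc25a42 ratios lie higher in TAC-Veh than in the other groups, and the Slc25a39/Slc25a40 ratio is higher in both THZ1 groups than in their vehicle groups.

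Over 8 pairs and 4 comparisons, 32 two-sided exact permutation tests were made, and 10 reached 0.0286, the smallest p that 4 against 4 libraries allow. The adjusted p of these 10 was 0.0914 (exact permutation, Benjamini-Hochberg), so no ratio passed the correction. Because p cannot fall below 0.0286 here, a single ratio could not pass on its own, however far apart its groups lay. The correction therefore cannot decide whether these ratios differed. The other 4 pairs, Slc25a37/Slc25a28, Slc25a33/Slc25a36, Slc25a24/Slc25a25 and Slc25a23/Slc25a25, differed by at most 0.49 on the log2 scale between any of the groups compared, and none reached the smallest p.

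Enzymes and channels that work with these carriers were counted beside them. Of all tested genes, 23.6% fell and 21.4% rose with TAC, and 15.1% rose and 14.2% fell with THZ1 in TAC hearts. In TAC-THZ1 against Sham-THZ1, 12.8% of all tested genes were lower and 11.4% higher. All 4 malate-aspartate shuttle enzymes fell with TAC and rose with THZ1 in TAC hearts by limma: Got1 (-0.41 and 0.48), Got2 (-0.56 and 0.36), Mdh1 (-0.40 and 0.39) and Mdh2 (-0.39 and 0.33), in log2 fold changes. None was called in TAC-THZ1 against Sham-THZ1. In the carnitine shuttle, 3 of 5 genes rose with THZ1 (Cpt1b, Crat and Slc22a5) and 0 were called lower, in a range of -0.33 to 0.61. However, 4 of 5 were lower in TAC-THZ1 than in Sham-THZ1, Cpt2 at -0.56 and Crat at -0.36 among them. The 5 genes ranged from -0.63 to -0.15 in that comparison.

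For energy export, 3 of 5 genes fell with TAC and 3 rose with THZ1, the creatine kinase Ckm and the outer-membrane channels Vdac1 and Vdac3 in both. Their log2 fold changes were -0.43 and 0.48, -0.38 and 0.36, and -0.35 and 0.41. Of 86 nuclear-encoded subunits of the respiratory chain and ATP synthase, 29 fell and 2 rose with TAC, with a median log2 fold change of -0.22. Of all tested genes, 23.6% fell and 21.4% rose in that comparison. With THZ1 in TAC hearts, 70 rose and 0 fell, with a median of 0.42, where 15.1% of all tested genes rose and 14.2% fell. Summed over all 89 such genes listed, levels per kb were 661489 to 683387 in Sham-Veh and 669600 to 844372 in TAC-THZ1. The sums in TAC-Veh were 698062, 457200, 641063 and 481255. TAC-Veh 1 thus lay above every Sham-Veh library, TAC-Veh 3 somewhat below them and TAC-Veh 2 and 4 far below. Partner genes are given with all libraries only. At 15 of 38, the carriers that rose with THZ1 were a smaller share than the 70 of 86 respiratory chain genes, a difference that was not tested.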

How the data were processed

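The authors aligned single-end 40-base reads with TopHat2 2.1.1 to mm9, counted them per GENCODE gene with HTSeq in the reverse-stranded mode, and deposited normalized counts, that is, counts divided by DESeq2 size factors (a signal on the scale of reads). Dividing each library's values by its smallest step gave whole reads for 100% of values within a tolerance of 0.001 steps. Levels per kb used the exon union of mm9 gene models (GENCODE vM1).

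The main test was limma 3.58.1 (R 4.3.3) with trend on log2(normalized count + 1) of 13331 genes, 4 groups in 1 fit, without a block, with Benjamini-Hochberg adjustment over all genes. Fold changes are on that scale. edgeR 4.0.16 (quasi-likelihood) and DESeq2 1.42.0 on the recovered reads were alternatives. They called 6067 and 6138 genes for TAC-Veh against Sham-Veh, where limma called 6003, and 3981 and 4170 for TAC-THZ1 against TAC-Veh, where limma called 3918. Ratios were tested by exact permutation (SciPy 1.17.1).

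Values in every library were given for the 6 carriers highest per kb, up to 5 called carriers of smallest adjusted p per direction and comparison, and both carriers of the 4 ratio pairs described. Other carriers were given by role, and 1 carrier is counted but its values are not reported here. The members, lists and tests were chosen with earlier results of these data known. Pseudocounts, filters, scalings, library weights, a replicate block and each library left out in turn were tried as alternatives. The log2 thresholds of 1 and 0.89 follow the study's methods, which set the latter on these samples. The labels give 10 mg/kg b.i.d., and whether each library came from its own animal was not given in the sources used here. Averaged over genes, libraries of a group differed by more than counting error. The chi-square per degree of freedom between them was 2.97 to 93.5, so no library was a copy of another. This average does not describe scarce carriers such as Slc25a31, which had 4 to 19 reads in a library.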

Additional observations from a re-analysis of the deposited data

Results flagged for a closer look

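In 6 of 152 groups of 4 libraries (38 carriers in 4 groups), 1 library stood apart from the other 3 by Dixon's test at the 95% level, which chance alone gives in about 1 of 20 groups. The values are the gap to the nearest library divided by the range of the group. Slc25a46 was high in Sham-Veh 1 (0.957), Slc25a28 was low in Sham-THZ1 3 (0.919) and in TAC-THZ1 3 (0.832), Slc25a11 was low in Sham-THZ1 2 (0.887), Slc25a33, a pyrimidine nucleotide carrier, was high in TAC-Veh 1 (0.846), and Slc25a27 (Ucp4) was low in TAC-THZ1 3 (0.829). Slc25a33 stood at 583 normalized counts in that library and at 287, 333 and 313 in the other TAC-Veh libraries. Slc25a27 was not called in TAC-THZ1 against TAC-Veh (log2 fold change 0.30) and was called without TAC-THZ1 3 (0.42, limma adjusted p = 0.0209).

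The change with THZ1 differed between TAC and sham hearts by the interaction test in limma for Slc25a11 (0.50), Slc25a3 (0.51) and Slc25a26 (0.60), as differences of log2 fold changes. Each was higher in 4 of 4 TAC-THZ1 libraries than in every TAC-Veh library, and each of these calls was lost when some single libraries were left out.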

How the results depend on the processing

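No carrier changed direction in any fold change that had been called, under any alternative. For single carriers and alternatives, 46 calls for TAC-Veh against Sham-Veh and 47 for TAC-THZ1 against TAC-Veh were lost, and 11 and 7 were gained. The median log2 fold change of all genes was at most 0.031 in size under every scaling. With only the 2 groups compared in the fit, 8 carriers were higher and 1 was lower in TAC-THZ1 against TAC-Veh, and 3 were higher in Sham-THZ1 against Sham-Veh and 3 in TAC-THZ1 against Sham-THZ1. The interaction could not be fitted that way. Under library weights the counts were 1 lower in TAC-THZ1 against TAC-Veh, 1 higher in Sham-THZ1 against Sham-Veh, 4 higher in TAC-THZ1 against Sham-THZ1, and 7 positive and 1 negative for the interaction. At an adjusted p under 0.01, 1 carrier was lower in TAC-THZ1 against TAC-Veh, 2 were lower in TAC-THZ1 against Sham-THZ1, and 0 had a positive interaction. With the log2 thresholds of 1 for TAC and 0.89 for THZ1, TAC left 0 higher and 2 lower, THZ1 in TAC hearts left 1 higher and 0 lower, and TAC-THZ1 against Sham-THZ1 left 0 higher and 1 lower. DESeq2 gave 5 positive interactions, and a mean filter of 50 and quantile normalization gave 1 negative interaction each. Without TAC-Veh 2 and 4, chosen after seeing the data, 4 were higher in TAC-THZ1 against Sham-THZ1. Apart from fewer libraries or genes, the cause of these differences was not tested.

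Leaving out 1 library at a time gave 3 to 5 higher and 10 to 18 lower for TAC-Veh against Sham-Veh, 11 to 17 higher and 2 lower for TAC-THZ1 against TAC-Veh, 0 for Sham-THZ1 against Sham-Veh, and 1 to 3 higher and 3 to 4 lower for TAC-THZ1 against Sham-THZ1. The upper value of 3 came without TAC-Veh 1, and there were 2 without TAC-Veh 2 or TAC-Veh 4. The interaction gave 0 to 11 positive and 0 to 3 negative. It gave 0 positive without Sham-THZ1 2 or TAC-THZ1 2, 1 without Sham-Veh 2, 3 or 4 or Sham-THZ1 4, and 5 without TAC-Veh 4, with 2 negative. Samples with the same replicate number did not deviate together (r from -0.43 to 0.164, above 0.1 in 2 of 24 pairs). With the replicate block, 4 carriers were higher and 16 lower for TAC-Veh against Sham-Veh, 14 and 2 for TAC-THZ1 against TAC-Veh, 0 and 0 for Sham-THZ1 against Sham-Veh, 1 and 4 for TAC-THZ1 against Sham-THZ1, and 2 and 0 for the interaction. Differences in the ratios of paired carriers took the other sign in 19 of 320 alternative values, all of them for 8 differences of at most 0.078 in size and none for the 10 at the smallest p, and with 3 libraries in a group or in blocks of 4 the exact tests cannot pass. With 4 libraries a group, intervals of scarce carriers are wide: that of Slc25a31 in TAC-Veh against Sham-Veh ran from -1.24 to 0.36 on the log2 scale.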

Other observations

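Some proteins of the family carry other symbols in the deposited table, and 6 of 8 such genes were tested. Mtch1, an outer-membrane member, rose with TAC (log2 fold change 0.57, limma adjusted p = 9.19e-06) and fell with THZ1 in TAC hearts (-0.29, adjusted p = 0.00569). Its paralog Mtch2 was not called in either comparison (-0.061 and 0.20). Mcart1, listed as Slc25a51 in current nomenclature and a carrier of NAD, fell with TAC (-0.39, limma adjusted p = 0.00163) and was lower in TAC-THZ1 than in Sham-THZ1 (-0.27, adjusted p = 0.0289). Ucp3, the uncoupling protein of muscle, fell with TAC (-1.53, limma adjusted p = 0.00476) and was also lower in TAC hearts under THZ1 (-1.66 against Sham-THZ1, adjusted p = 0.00783). Its log2 fold change in TAC-THZ1 against TAC-Veh was 0.30 and was not called.

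Both subunits of the mitochondrial pyruvate carrier, which is outside the family, rose with THZ1 in TAC hearts by limma, Brp44 (Mpc2) at 0.53 and Brp44l (Mpc1) at 0.37 on the log2 scale, and Brp44 fell with TAC (-0.35).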
